A study of Mus musculus with 24 samples.

Results

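The 8 genes described here belong to the circadian clock or are known to follow it: Arntl, Clock, Nr1d2, Per1, Per3, Hlf, Usp2 and Wee1. They were taken by name, as every probe annotated with 1 of these symbols and no other, and the probes of a gene were averaged. This gave 8 of 8750 features, measured by 11 of 9275 probes. Clock, Per1 and Per3 each had 2 probes and the other 5 genes had 1. The 8 genes were chosen with earlier results of these data known. Counts of members beside the share of all features are therefore descriptions, and do not test the set.

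The mammalian clock is a feedback loop of transcription that runs in most tissues, lung and skin included. ARNTL (also called BMAL1) and CLOCK form a dimer that binds E-boxes and switches on the Per and Cry genes, whose proteins return to block the dimer, and the Nr1d genes, whose REV-ERB proteins repress Arntl. PAR bZIP factors such as HLF are clock outputs that act through D-boxes, and in a running clock Arntl peaks at about the opposite time of day from Nr1d2, Per3 and Hlf.

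The study measured lung and skin of female mice aged 12 to 13 weeks from the inbred strains A/J, C3H/HeMs and C57BL/6J on 24 cDNA arrays. Lung groups were untreated mice and mice at 1 h, 12 h and 72 h after 10 Gy of gamma-rays to the thorax, and skin groups were untreated mice and mice at the same times after 30 Gy to the hind leg, with skin taken in full thickness. Each array held RNA pooled from 3 mice against a common mixture of RNA from 10 organs, and each of the 8 groups held 3 arrays, 1 per strain, so that n = 3 pools per group throughout and the spread contains strain. The labels give no hour of day for irradiation or killing, so the time after irradiation and the hour of day at which tissue was taken cannot be told apart for any gene below.

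Values are log2 ratios of sample over reference, centred on the median of each array, and a change is the difference of 2 such values. They compare the same gene between arrays and not 1 gene with another. Where 3 values are listed, they stand in the order A/J, then C57BL/6J, then C3H/HeMs. Tests are limma's moderated test with strain as a block, adjusted by Benjamini-Hochberg over all 8750 features, and a call means an adjusted p under 0.05. The number of arrays limits their precision. Shares of all features are those of the fit with every array, and counts with arrays left out or with other blocks stand without one. The arrays held the labelled tissues by their markers: 6 of 7 measured lung epithelium genes were above the reference in lung (median log2 ratio 2.71) against 1 of 7 in skin (median -4.03), and 6 of 6 epidermal genes were above it in skin (median 5.53) against 1 of 6 in lung (median -1.50). In lung, 4 arrays differed from the rest, those of C3H/HeMs and of A/J at 12 h and 72 h: they held 115 to 674 ratios of exactly 0 against 1 to 23 on the other 8, and their correlations with those 8 over all features were 0.796 to 0.887, against 0.898 to 0.959 among the 8. All control and 1 h lung arrays, and every C57BL/6J lung array, belonged to the larger set, and no probe of the 8 genes had a ratio of exactly 0 or at the limit of the scale.

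Promoter sequence was searched first, because the loop is usually described through the sites these genes carry. RefSeq promoter windows of GRCm38.p6, from 250 bases before to 50 after each start, matched 7 of the 8 genes. Both strands were searched for the E-box CACGTG, found in 7.15% of all 32851 windows of that length, the D-box TTATGNAA, found in 3.38%, and the REV-ERB/ROR response element, found in 0.384%. None of these motifs overlaps another here. Arntl had a response element 27 bases after a start site, Per1 an E-box at -166 and a D-box at -24, and Per3 a D-box at -205 and another at -158. The windows of Clock, Nr1d2, Hlf and Usp2 held none of these letters. The stretches that hold the matches are shown with the motifs in capitals.
Arntl, chr7:113207529-113207555, plus strand: gaaggcagAAAGTAGGTCAgggacgga
Per1, chr11:69098768-69098947, plus strand: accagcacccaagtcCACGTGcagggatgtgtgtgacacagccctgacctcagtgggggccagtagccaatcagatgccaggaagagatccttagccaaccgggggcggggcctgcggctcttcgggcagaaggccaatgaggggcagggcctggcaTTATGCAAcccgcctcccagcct
Per3, chr4:151044801-151044885, minus strand: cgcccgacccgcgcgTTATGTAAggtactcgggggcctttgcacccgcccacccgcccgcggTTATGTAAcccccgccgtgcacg
A match of letters is a description of the window and not a measured binding site.

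In lung at 1 h after 10 Gy, Arntl was above control and Nr1d2, Per3 and Hlf were below it in every strain, by 1.69- to 1.98-fold on average, but no member was called. Of the 8 members, 0 passed the adjusted threshold, where 0.0114% of all features did. An unadjusted p under 0.05 was reached by 4 of the 8 (Arntl, Nr1d2, Per3 and Hlf), against 2.24% of all features, and by 2 when the C57BL/6J arrays were left out. Of 14 other measured clock genes, 0 reached it, so the count of 4 depends on which clock genes were made members. The 3 values at 1 h and the 3 control values did not overlap for 5 of the 8 (Arntl and Clock higher, Nr1d2, Per3 and Usp2 lower), against 6.58% of all features. At least 1.5-fold in all 3 strains was reached by Arntl and Hlf, against 0.229% of all features.

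Among the activators, Arntl in control lung had log2 ratios of -0.19, -0.15 and 0.10. At 1 h its ratios were 0.93, 1.09 and 0.69, all above the 3 controls. The change was 0.99 ± 0.23 (SE), a 1.98-fold higher level, and it ranked 10 by p among the 8750 features without passing adjustment (limma adjusted p = 1). Clock, the partner of ARNTL in the dimer, stood at 0.24, 0.48 and 0.44 in control and at 0.68, 0.61 and 0.60 at 1 h. Its groups did not overlap either, but the change was small, 0.24 ± 0.17 (SE; limma adjusted p = 1).

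Among the repressors and outputs, Nr1d2, which encodes REV-ERB beta, had log2 ratios of 0.14, -0.14 and -0.27 in control lung. At 1 h the ratios were -1.27, -0.85 and -0.60, all below the controls. The A/J change of -1.41 was the largest of the 3 and the C3H/HeMs change of -0.34 the smallest, and the mean change was -0.82 ± 0.35 (SE; limma adjusted p = 1). Per3, a Period family gene, stood at 0.26, 0.76 and 0.10 in control and at -0.39, -0.36 and -0.40 at 1 h. The 3 strains thus lay within a spread of 0.02 (SD) at 1 h after a spread of 0.35 in control, and the mean change was -0.75 ± 0.21 (SE; limma adjusted p = 1). Its probes did not move alike: the first changed by -0.14 ± 0.17 (SE) and the second by -1.36 ± 0.36 (SE), so the gene's value at 1 h rests on the second. Hlf had control ratios of -0.73, -0.82 and -1.58 and 1 h ratios of -1.52, -2.01 and -2.26. Each strain was lower than its own control, by -0.80, -1.19 and -0.68, although the C3H/HeMs control overlapped the 1 h values. The mean change of Hlf was -0.89 ± 0.27 (SE; limma adjusted p = 1).

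The remaining members differed less from control at 1 h in lung. Usp2, a deubiquitinating enzyme whose transcript is under clock control in many tissues, had control ratios of -2.08, -2.61 and -2.47 and 1 h ratios of -2.64, -2.79 and -2.82. All 3 values at 1 h were below all 3 controls, with a change of -0.36 ± 0.26 (SE; limma adjusted p = 1). Wee1, a kinase that holds cells before mitosis and whose gene is an E-box target of the clock, changed by -0.13 ± 0.21 (SE), and Per1, a Period gene that also responds to acute stimuli, by 0.06 ± 0.22 (SE). Neither Wee1 nor Per1 kept apart from its controls.

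**Figure D1:**
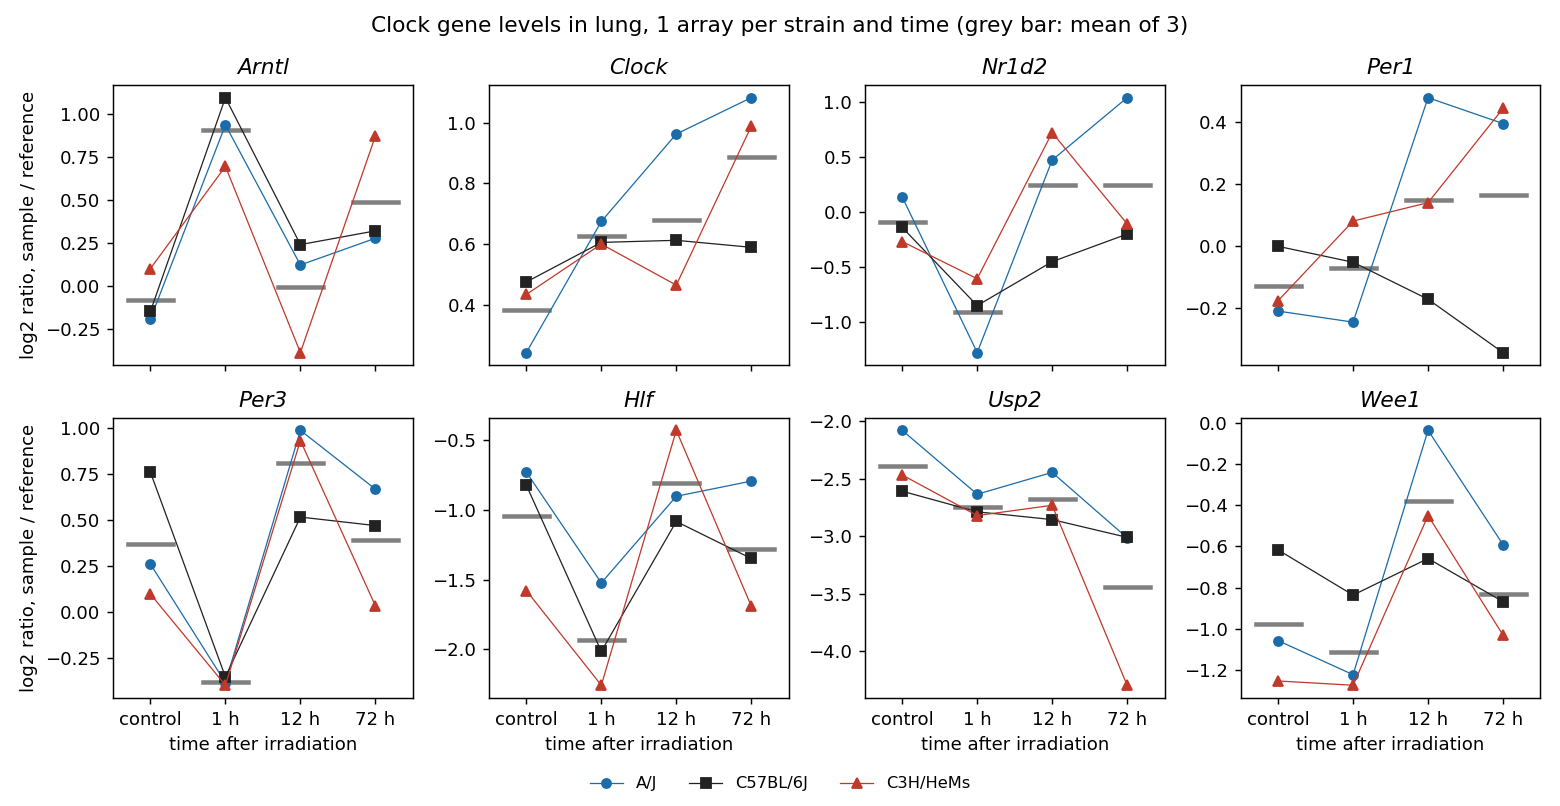
Log2 ratio of sample over reference (y) of the 8 genes in control lung and 1 h, 12 h and 72 h after 10 Gy (x, not to scale in time), with 1 point per strain and a grey bar for the mean of 3; each panel has its own y range. Arntl peaks at 1 h in A/J and C57BL/6J while Nr1d2, Per3 and Hlf are lowest at 1 h in all 3 strains, and the 12 h and 72 h points of A/J and C3H/HeMs come from the 4 arrays that differ from the rest.

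In skin at 1 h after 30 Gy, Nr1d2, Per3 and Hlf were again below control in every strain and Clock was above it, while Arntl was above control in 2 of 3 strains. None of the 8 members was called, where 0% of all features were. An unadjusted p under 0.05 was reached by 3 of the 8 (Nr1d2, Per3 and Hlf, all lower), against 4.37% of all features, and by 1 when all arrays of C57BL/6J or of C3H/HeMs, or only the control or the 1 h array of A/J or C57BL/6J, were left out. The groups did not overlap for 2 of the 8 (Clock higher, Nr1d2 lower), against 7.11% of all features.

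Arntl in control skin was 0.81, 1.25 and 2.08, and at 1 h it was 1.32, 2.32 and 1.90. The C3H/HeMs value was lower at 1 h than in its control, the groups overlapped, and the change was 0.47 ± 0.40 (SE; limma adjusted p = 1). Clock was 0.68, 0.57 and 0.84 in control and 0.92, 0.91 and 1.22 at 1 h. Its change was 0.32 ± 0.21 (SE; limma adjusted p = 1). Its second probe changed by 0.54 ± 0.24 (SE) and its first by 0.10 ± 0.20 (SE).

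Nr1d2 in control skin was 1.10, 0.89 and 1.13, and at 1 h it was -0.27, 0.53 and 0.44, with no overlap. The change was -0.80 ± 0.27 (SE; limma adjusted p = 1), and as in lung it was largest in A/J, at -1.36. Per3 was 0.32, 0.64 and -0.44 in control and -0.06, -0.57 and -0.73 at 1 h. The groups overlapped through the C3H/HeMs control, and the change was -0.63 ± 0.28 (SE; limma adjusted p = 1). Hlf was 0.32, -0.16 and -0.62 in control and 0.08, -1.11 and -1.04 at 1 h. Its change was -0.54 ± 0.22 (SE; limma adjusted p = 1), with the largest difference in C57BL/6J, at -0.95.

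Per1 in skin was 0.85, 0.72 and 0.32 in control and 1.43, 1.47 and 0.38 at 1 h, a change of 0.47 ± 0.27 (SE; limma adjusted p = 1). A/J and C57BL/6J were higher by 0.59 and 0.75 and C3H/HeMs by 0.07. Usp2 was above its control in all 3 strains, by 0.44, 0.01 and 0.44, with a mean of 0.30 ± 0.23 (SE). Wee1 changed by 0.31, 0.95 and -0.02 in the 3 strains, so its direction was not shared. As averages over their probes, none of these 3 genes reached an unadjusted p under 0.05. The first probe of Per1 did, at 0.54 ± 0.23 (SE; limma adjusted p = 1), with 0.40 ± 0.40 (SE) for the second.

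**Figure D2:**
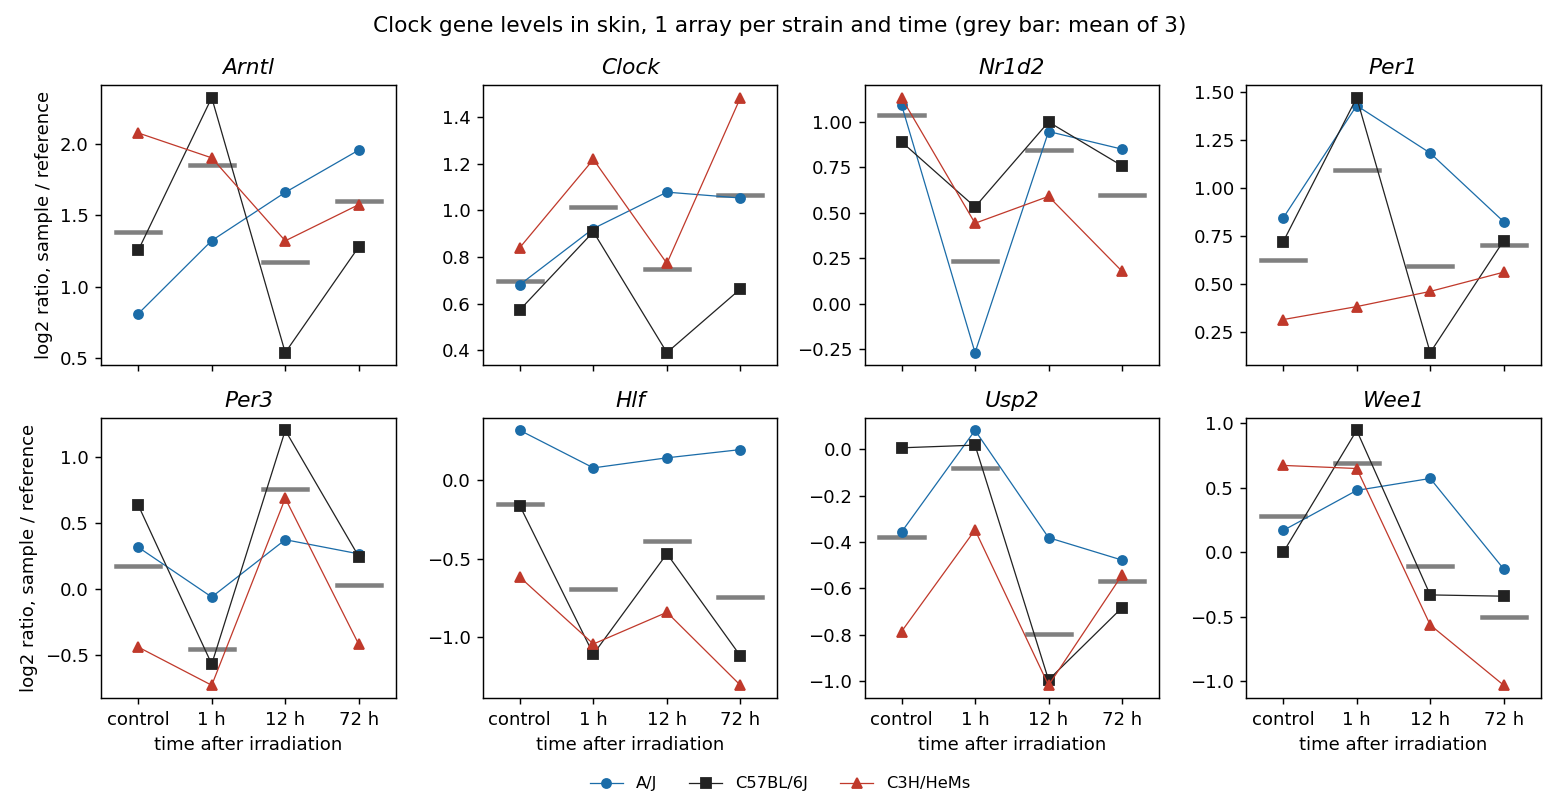
Log2 ratio of sample over reference (y) of the 8 genes in control skin and 1 h, 12 h and 72 h after 30 Gy (x, not to scale in time), with 1 point per strain and a grey bar for the mean of 3; each panel has its own y range. Nr1d2 at 1 h lies below its 3 controls, and the values of Arntl, which span 0.81 to 2.08 in control, overlap with control at each later time.

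Lung and skin were measured on different arrays, so their 1 h changes share no control arrays. The labels do not say whether untreated lung and skin came from the same mice, nor the hour at which each was taken. The lung and skin changes are thus not known to be independent. In a fit of all 24 arrays, the mean of the lung and skin changes at 1 h was -0.71 ± 0.17 (SE) for Hlf, -0.69 ± 0.18 (SE) for Per3, -0.81 ± 0.23 (SE) for Nr1d2, 0.73 ± 0.24 (SE) for Arntl and 0.28 ± 0.13 (SE) for Clock. These 5 of the 8 members had an unadjusted limma p under 0.05, against 5.11% of all features, and 0 were called, against 0.0229%. Their adjusted p-values were 0.321 for Hlf, 0.429 for Per3, 0.519 for Nr1d2, 0.63 for Arntl and 0.967 for Clock. The mean change of Per1 was 0.26 ± 0.18 (SE), that of Wee1 0.14 ± 0.21 (SE) and that of Usp2 -0.03 ± 0.18 (SE).

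The difference between the tissues was tested in the same fit. No member was called at 1 h, 12 h or 72 h, where 0% of all features were at each time. At 1 h the skin change minus the lung change was 0.02 ± 0.46 (SE) for Nr1d2, 0.13 ± 0.36 (SE) for Per3, 0.35 ± 0.35 (SE) for Hlf and -0.52 ± 0.49 (SE) for Arntl. These errors were about as large as the differences or larger. At 12 h the change of Wee1 in skin was lower than in lung by 0.98 ± 0.42 (SE; limma adjusted p = 0.58), and at 72 h Usp2 was higher in skin than in lung by 0.87 ± 0.35 (SE; limma adjusted p = 0.368) and Wee1 lower, at -0.93 ± 0.42 (SE; limma adjusted p = 0.381). The lung side of these later differences includes the 4 arrays that differ from the rest. Without them the skin change minus the lung change of Wee1 was -0.39 at 12 h and -0.57 at 72 h, and that of Usp2 was 0.30 at 72 h. Absolute ratios are not compared between the tissues by a test, because lung was labelled with Cy3 and skin with Cy5, so tissue and dye cannot be told apart.

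At 12 h in lung, against 1 h, Nr1d2, Per3, Hlf and Wee1 were higher and Arntl lower in all 3 strains, 5 of the 8 with an unadjusted limma p under 0.05. This count reads against 16.5% of all features, and 0 members were called against 0.0686%. The same 5 of 8 did not overlap with 1 h, against 14.9% of all features. The smallest adjusted p among the members in any comparison between groups of a tissue was that of Per3 here, 0.0923, for a change of 1.19 ± 0.21 (SE), a 2.29-fold higher level.

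Per3 stood at 0.99, 0.52 and 0.93 in the 3 strains at 12 h, against -0.39, -0.36 and -0.40 at 1 h. Its second probe differed by 1.95 ± 0.36 (SE) between these times and its first by 0.43 ± 0.17 (SE). Hlf was -0.90, -1.08 and -0.43 at 12 h, a change of 1.13 ± 0.27 (SE) from 1 h (limma adjusted p = 0.153). Nr1d2 was 0.47, -0.45 and 0.72, a change of 1.16 ± 0.35 (SE) from 1 h (limma adjusted p = 0.212). Arntl was 0.12, 0.24 and -0.39, a change of -0.92 ± 0.23 (SE) from 1 h (limma adjusted p = 0.159). Clock did not turn with Arntl: its change from 1 h to 12 h was 0.05 ± 0.17 (SE).

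The 12 h lung arrays of A/J and C3H/HeMs are among the 4 that differ from the rest, so these values were also taken without them. In C57BL/6J, whose arrays all belong to the larger set, the changes from 1 h to 12 h were -0.85 for Arntl, 0.87 for Per3, 0.93 for Hlf and 0.40 for Nr1d2. In the fit without the 4 arrays, which leaves only the C57BL/6J array at 12 h, they were -0.73 for Arntl, 0.69 for Per3, 0.78 for Hlf, 0.45 for Nr1d2 and 0.14 for Wee1. With the array set as a block, the changes were -0.93 for Arntl, 0.88 for Per3, 0.88 for Hlf, 0.58 for Nr1d2 and 0.25 for Wee1. In that fit 2 of the 5 (Arntl and Per3) kept an unadjusted limma p under 0.05. The share of all features in that fit is not given here, so this count does not show whether the members kept more than other features. The directions of these 5 genes were the same in all 3 fits, while the sizes for Nr1d2, Per3 and Wee1 moved by more than 1.5 times in at least 1 of them. The changes at 1 h against control use none of the 4 arrays directly, and their sizes were the same without them. Their errors and p-values do depend on these arrays, because the spread is estimated over all 12 lung arrays.

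Markers of lung cell types were at different levels at the same times. From 1 h to 12 h, 7 of 7 measured lung epithelium genes were above 0 (median 0.50, and by strain 0.64, -0.21 and 0.85), and their mean log2 ratio per array ran from 1.42 to 2.41 at 1 h and from 2.24 to 2.81 at 12 h. Of the 9 measured B cell genes, 7 were below 0 from 1 h to 12 h (median -0.49, and by strain -1.01, -0.16 and -0.42). Against control 9 of 9 were below 0 at 12 h (median -1.06, and by strain -1.34, -0.57 and -0.53). At 72 h 8 of 9 were (median -0.94, and by strain -1.58, -0.28 and -0.34). The mean log2 ratio of the B cell genes per array ran from -0.54 to -0.05 in control lung, from -0.81 to -0.31 at 1 h, from -1.32 to -0.93 at 12 h and from -1.38 to -0.41 at 72 h. At 1 h against control the medians were -0.16 for lung epithelium and -0.23 for B cells. None of these marker genes was called, and their part in the lung values of the clock genes was not tested.

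Against control, the 12 h lung values gave 1 of 8 members an unadjusted limma p under 0.05, Wee1, where 12.1% of all features had one, and 0 were called against 0.114%. Wee1 was -0.04, -0.66 and -0.45 at 12 h and -1.06, -0.62 and -1.25 in control. It was higher in A/J and C3H/HeMs, by 1.02 and 0.80, and at -0.04 in C57BL/6J, the strain with all its arrays in the larger set. The fit without the 4 arrays gave 0.00031 for Wee1. In that fit 4 of the 8 turned direction, Nr1d2 from 0.34 to -0.37, Per3 from 0.44 to -0.06, Per1 from 0.28 to -0.12 and Hlf from 0.24 to -0.11. No member's 12 h values kept apart from control, where 9.86% of all features did.

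At 72 h in lung, Arntl and Clock were above control and Usp2 below it in every strain. These 3 of the 8 had an unadjusted limma p under 0.05, against 12.4% of all features, and did not overlap with control, against 12.4%. None was called, against 0.114% of all features. Usp2 was -3.02, -3.01 and -4.30 at 72 h, a change of -1.06 ± 0.26 (SE; limma adjusted p = 0.297), with -0.94, -0.40 and -1.83 by strain. Without the 4 arrays its change was -0.49 (limma adjusted p = 0.548). Arntl was 0.28, 0.32 and 0.87, a change of 0.57 ± 0.23 (SE; adjusted p = 0.376), and Clock 1.08, 0.59 and 0.99, a change of 0.50 ± 0.17 (SE; adjusted p = 0.354). Without the 4 arrays they were 0.34 and 0.17 (limma adjusted p = 0.702 and 0.769). Nr1d2, Per3, Hlf, Per1 and Wee1 lay between -0.23 and 0.33 from control on average, and except for Hlf these directions depended on the 4 arrays. Hlf stayed below control, at -0.37 without the 4 arrays and -0.48 with the array set as a block. Without the 4 arrays Nr1d2 turned from 0.33 to -0.12, Per1 from 0.29 to -0.29, Wee1 from 0.15 to -0.21 and Per3 from 0.02 to -0.11. The same 4 genes turned with the array set as a block. The probes of Per3 also lay on opposite sides of control at 72 h, the first at 0.43 ± 0.17 (SE) and the second at -0.39 ± 0.36 (SE). Between 72 h and 12 h, 1 of the 8 had an unadjusted limma p under 0.05, Usp2 at -0.76 ± 0.26 (SE), against 5.82% of all features, and 0 were called against 0%. Without the 4 arrays that change of Usp2 was -0.15.

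Ordered by the mean of the 3 strains, lung Arntl was lowest in control (-0.08 ± 0.16 SD), then at 12 h (-0.01 ± 0.33 SD), 72 h (0.49 ± 0.33 SD) and 1 h (0.91 ± 0.20 SD). The control and 12 h levels did not differ beyond their spread, and the 72 h strains, from 0.28 to 0.87, overlapped those at 1 h. Lung Nr1d2 was lowest at 1 h (-0.91 ± 0.34 SD), then in control (-0.09 ± 0.21 SD), with 72 h (0.25 ± 0.69 SD) and 12 h (0.25 ± 0.62 SD) alike within their spread. Lung Per3 ran from 1 h (-0.38 ± 0.02 SD) to control (0.37 ± 0.35 SD), 72 h (0.39 ± 0.33 SD) and 12 h (0.81 ± 0.26 SD), with overlap between the last 3. Lung Hlf ran from 1 h (-1.93 ± 0.37 SD) to 72 h (-1.28 ± 0.45 SD), control (-1.04 ± 0.47 SD) and 12 h (-0.80 ± 0.34 SD), again with overlap between the last 3. For these 3 genes 1 h was thus the lowest group, and the order of the others is not separated by the strains.

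**Figure D3:**
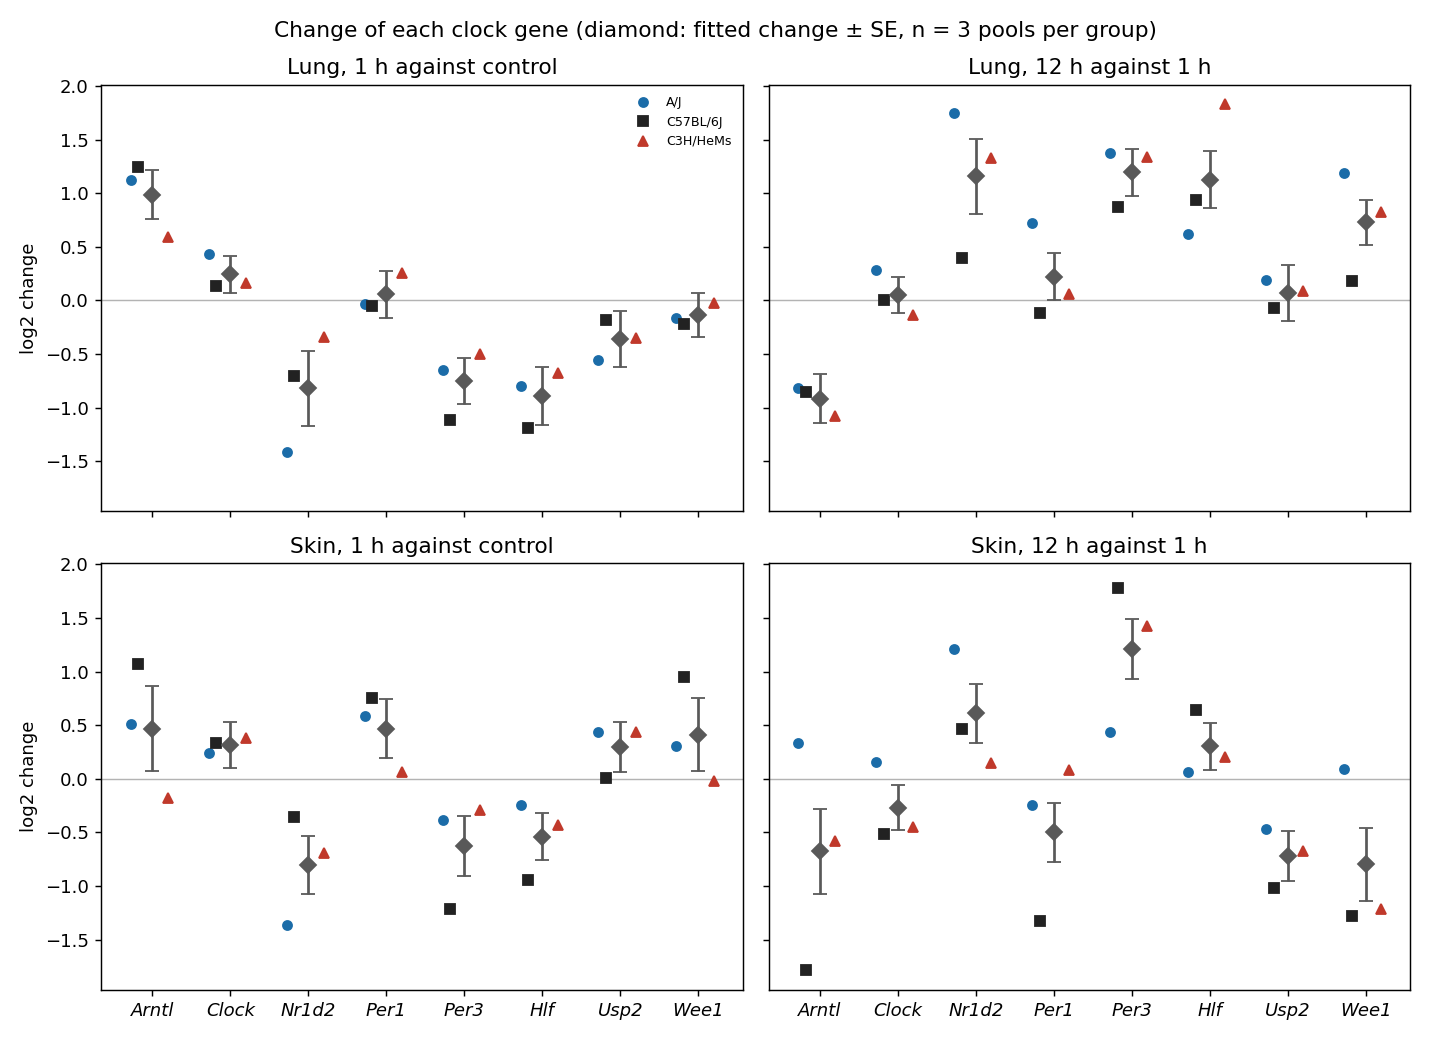
Log2 change (y) of the 8 genes (x) in lung (top) and skin (bottom), at 1 h against control (left) and at 12 h against 1 h (right); diamonds with bars are the fitted change ± SE from 3 pools per group, and the other symbols are the 3 strains. In lung Arntl lies at 0.99 on the left and -0.92 on the right, and Nr1d2, Per3 and Hlf lie between -0.89 and -0.75 on the left and between 1.13 and 1.19 on the right.

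In skin between 1 h and 12 h, Per3 was higher in all 3 strains, by 0.44, 1.78 and 1.42, and Usp2 lower, by 0.46, 1.01 and 0.67. Per3 was 0.37, 1.21 and 0.69 at 12 h, a change of 1.21 ± 0.28 (SE; limma adjusted p = 0.633), and both of its probes were higher, by 1.15 ± 0.30 (SE) and 1.27 ± 0.37 (SE). Usp2 changed by -0.72 ± 0.23 (SE; adjusted p = 0.717) and Wee1 by -0.80 ± 0.34 (SE; adjusted p = 0.732), the latter with 0.09 in A/J and -1.27 and -1.21 in the other strains. These 3 of the 8 had an unadjusted limma p under 0.05, against 6.49% of all features, and 0 were called against 0.0114%. Nr1d2 and Hlf were also higher at 12 h than at 1 h in each strain, by 0.61 ± 0.27 (SE) and 0.30 ± 0.22 (SE) on average, without reaching that threshold. Arntl changed by -0.68 and Clock by -0.27 on average (limma adjusted p = 0.778 and 0.801). The mean change of Arntl and Clock was 0.25, -1.15 and -0.51 by strain, so its direction was not shared.

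Skin at 12 h against control gave 0 of 8 members an unadjusted limma p under 0.05, where 6.71% of all features had one and 0% were called. Arntl was 1.66, 0.54 and 1.32 at 12 h and differed from control by 0.85, -0.72 and -0.76 by strain. The 11 measured skeletal muscle genes also differed by strain at this time, with median changes of 0.90, -0.36 and -3.72. Their mean log2 ratio per array ran from -0.85 to 1.69 in control skin, from -1.04 to 1.37 at 1 h, from -1.17 to 0.08 at 12 h and from -0.60 to 0.15 at 72 h. Other markers differed by strain as well at 12 h: the 6 measured adipocyte genes had median changes of 0.45, 2.03 and -0.98, and the 9 measured B cell genes -0.37, 1.26 and -0.48. The mean log2 ratio of the adipocyte genes per array ran from 0.99 to 1.72 in control skin and from 0.79 to 3.25 at 12 h, and that of the B cell genes from -1.34 to -1.28 and from -1.76 to 0.005. The part of muscle, adipocyte and B cell content in the skin values was not tested. In these bulk samples, fewer cells of a type and less RNA per cell cannot be told apart. At 1 h against control the medians by strain were -0.22, 0.17 and -0.42 for muscle genes and 0.40, 0.0047 and -0.59 for adipocyte genes. For B cell genes they were -0.13, -0.40 and -0.61. The part of these markers in the 1 h values of the clock genes was not tested.

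At 72 h in skin, Hlf and Wee1 were below control in every strain, 2 of the 8 with an unadjusted limma p under 0.05, against 7.39% of all features, and 0 called against 0%. Nr1d2 was also lower and Clock higher in every strain, and the groups did not overlap for 2 of the 8 (Nr1d2 and Wee1), against 10.1% of all features. Nr1d2 was 0.85, 0.76 and 0.18, a change of -0.44 ± 0.27 (SE; limma adjusted p = 0.681), and Clock differed by 0.37 ± 0.21 (SE; limma adjusted p = 0.681). Hlf was 0.20, -1.12 and -1.31, a change of -0.59 ± 0.22 (SE; adjusted p = 0.664). Wee1 was -0.13, -0.34 and -1.03, a change of -0.78 ± 0.34 (SE; adjusted p = 0.664) that was -1.70 in C3H/HeMs and -0.30 and -0.34 in the other strains. The muscle medians at 72 h were 0.50, -0.37 and -2.39. Other marker medians also moved at this time: 0.33, 1.47 and 0.25 for fibroblast genes and 0.35, 0.40 and 1.05 for epidermal genes. They were 0.55, -0.02 and -0.53 for adipocyte genes and -0.0058, -0.07 and -0.57 for B cell genes. The part of any of these markers in the 72 h values of Wee1 and the other clock genes was not tested. Between 72 h and 12 h, 1 of the 8 had an unadjusted limma p under 0.05, Per3 at -0.73 ± 0.28 (SE), against 7.12% of all features, and 0 were called against 0%.

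Hlf in skin also differed by strain, though without a call. Over the 4 skin groups Hlf averaged 0.19 ± 0.10 (SD, n = 4 arrays), -0.72 ± 0.48 (SD, n = 4) and -0.95 ± 0.29 (SD, n = 4) by strain. Every A/J array was above every array of the other strains, and limma's F test of strain gave an adjusted p of 0.0564, where 0.377% of all features passed. In lung the same order held, with -0.99 ± 0.36 (SD), -1.32 ± 0.51 (SD) and -1.49 ± 0.77 (SD), but the spread within strains was as large as the difference (adjusted p = 0.337, where 2.95% of all features passed). For the other 7 members the adjusted p of strain was 0.287 or more in skin and 0.301 or more in lung.

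Outputs is used here as a short name for Nr1d2, Per3 and Hlf, although Nr1d2 and Per3 belong to the repressing side of the loop. Arntl and Clock are the activators. The comparison of outputs with activators was made within each array, as the mean of Nr1d2, Per3 and Hlf minus the mean of Arntl and Clock. Such a difference does not depend on the centring of the array. In lung it was -0.14, -0.23 and -0.85 in the controls and -1.87, -1.92 and -1.73 at 1 h. In skin it was -0.17, -0.46 and -1.43 in control and -1.21, -2.00 and -2.00 at 1 h. The outputs were thus lower relative to the activators at 1 h in each strain of each tissue, by 1.43 ± 0.48 (SD, n = 3 strains) in lung and by 1.05 ± 0.49 (SD, n = 3) in skin.

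At 12 h the difference from control was 0.16 ± 0.94 (SD, n = 3) in lung, with -0.22, -0.53 and 1.22 in the 3 strains, and 0.13 ± 0.73 (SD, n = 3) in skin, with -0.71, 0.57 and 0.53. Neither had a shared direction, and the lung value turned to -0.41 without the 4 arrays and to -0.10 with the array set as a block. At 72 h it was -0.49 ± 0.23 (SD, n = 3) in lung, -0.45 without the 4 arrays and -0.76 with the set as a block, and -0.69 ± 0.19 (SD, n = 3) in skin, below control in each strain of each tissue. From 1 h to 12 h it was higher by 1.59 ± 0.48 (SD, n = 3) in lung and by 1.18 ± 0.90 (SD, n = 3) in skin, again in each strain of each tissue. Without the 4 lung arrays the lung value was 1.03. In A/J skin the activators were themselves higher at 12 h, by 0.25, and the outputs by 0.57. No p is given for this difference, because its 5 genes were chosen with results of these arrays known.

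**Figure D4:**
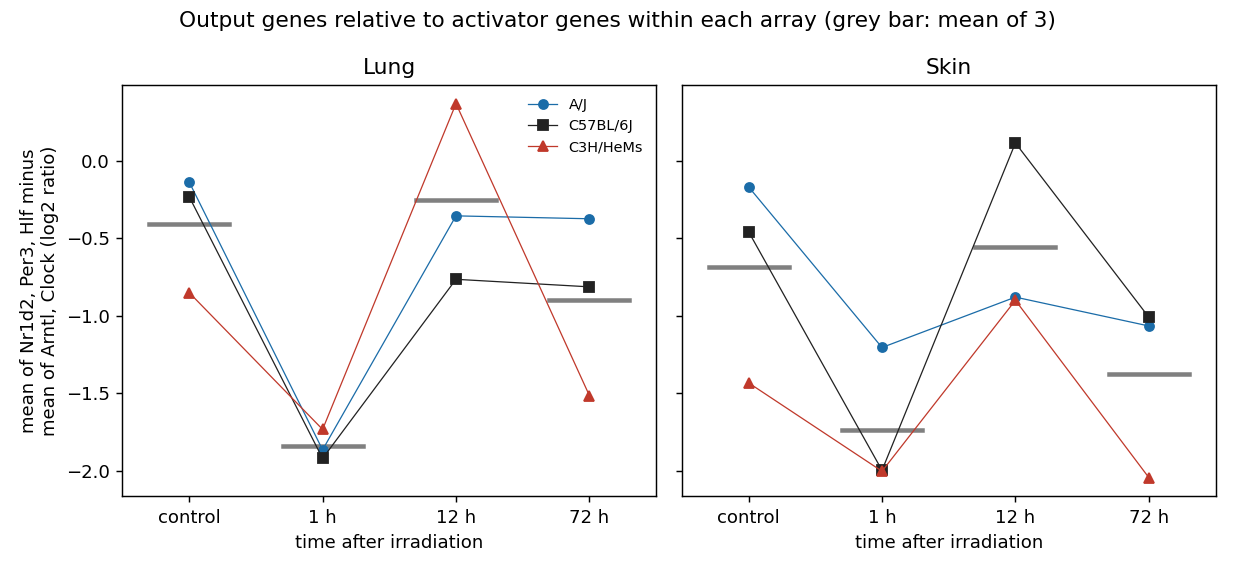
Mean log2 ratio of Nr1d2, Per3 and Hlf minus that of Arntl and Clock within each array (y), in control lung and skin and 1 h, 12 h and 72 h after irradiation (x, not to scale in time), with 1 point per strain and a grey bar for the mean of 3. All 3 strains are lowest at 1 h in lung, between -1.92 and -1.73; in skin A/J and C57BL/6J are lowest at 1 h, and C3H/HeMs is at -2.00 at 1 h and -2.05 at 72 h.

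Other parts of the loop were covered only in part: of 39 further clock genes listed, 14 were measured. None of the 14 was called in any comparison of either tissue, where 0% to 0.114% of all features were. At 1 h 0 of the 14 in lung and 1 of the 14 in skin had an unadjusted limma p under 0.05, against 2.24% and 4.37% of all features. The medians were -0.03 in each tissue against -0.0077 and -0.05 over all features. In lung 3 of the 14 at 12 h and 4 at 72 h had one against control, all higher, against 12.1% and 12.4% of all features. These lung values include the 4 arrays that differ from the rest. In skin 0 of the 14 at 12 h and 2 at 72 h had one, against 6.71% and 7.39%. Cry2, a cryptochrome and thus a repressor of the dimer, had changes of -0.0097 in lung and -0.03 in skin at 1 h. The kinases that phosphorylate PER proteins, Csnk1d, Csnk1e and Csnk1a1, lay between -0.09 and 0.10 in lung at 1 h.

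Ppara, a fatty acid receptor whose gene is a clock target, had the smallest p of the 14 in lung. It was -1.56, -2.08 and -2.18 in control lung, -1.97, -1.88 and -2.25 at 1 h and -0.66, -1.67 and -1.26 at 12 h. Its change from 1 h to 12 h was 0.84 ± 0.19 (SE; limma adjusted p = 0.144), and at 0.22 it was smallest in C57BL/6J, the strain outside the set of 4 arrays. Rora, whose receptor activates Arntl through the element that REV-ERB represses, changed by 0.64 ± 0.21 (SE) over the same interval, with 0.05 in C57BL/6J. Ppargc1a, a coactivator of ROR receptors, was higher at 72 h than in control by 0.74, 0.79 and 0.67 in the 3 strains (adjusted p = 0.354). Csnk1a1 was higher at 12 h than in control by 0.53 ± 0.21 (SE; adjusted p = 0.385).

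In skin, Nampt, the enzyme that makes NAD from nicotinamide and whose gene is an E-box target, was 0.72, 0.24 and -0.16 at 12 h and -0.40, -1.15 and -1.47 at 72 h. That change of -1.27 ± 0.28 (SE) was alike in the 3 strains, at -1.12, -1.38 and -1.31, and did not pass adjustment (limma adjusted p = 0.574). Ppara was lower at 1 h by 0.68 ± 0.22 (SE; adjusted p = 1). Sirt1, an NAD-dependent deacetylase, differed by -0.56 ± 0.20 (SE) from 1 h to 12 h, and Csnk1d by -0.63 ± 0.25 (SE) from control to 72 h.

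The p53 targets, genes switched on after DNA damage, were read on the same arrays. In lung 1 of 9 measured targets was called higher at 1 h, against 0.0114% of all features, with a median change of 0.44, and 3 of 9 at 12 h and at 72 h, against 0.114% and 0.0914%. In skin 0 of 9 was called at 1 h, 12 h or 72 h against control, where 0% of all features were, with medians of 0.64 at 1 h and 1.17 at 12 h. Of 11 measured genes that glucocorticoids induce, 0 were called at 1 h, against 0.0114% of all features in lung and 0% in skin, with medians of 0.12 in lung and 0.44 in skin. Per1, which glucocorticoids also induce, had 1 h changes of 0.06 in lung and 0.47 in skin, and the part of glucocorticoid-induced genes in these values was not tested.

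The genes whose pattern was most like the difference of outputs and activators were sought among 5707 features with a single gene symbol, with the 5 genes of the score left out and features named only by a clone or prediction identifier or with no single symbol passed over. Each value was taken relative to the mean of its strain and tissue, over 24 arrays that share libraries and centring with the score. The closest was Inmt, a methyltransferase abundant in lung (Pearson r = 0.743, Spearman rho = 0.755; r = 0.825 over the 12 lung and 0.694 over the 12 skin arrays). Tbpl1 (r = 0.704, rho = 0.605), Chil3 (r = 0.698, rho = 0.717), Lsm10 (r = 0.673, rho = 0.657) and Crisp2 (r = 0.667, rho = 0.715) followed. The most opposite, on the side of Arntl, was Eln, which encodes elastin (r = -0.805, rho = -0.826). Spon2 (r = -0.769, rho = -0.798), Gys1 (r = -0.738, rho = -0.76), Tmem252 (r = -0.724, rho = -0.624) and Zfp511 (r = -0.691, rho = -0.71) came next. Of these, Spon2 had the widest range in lung, 1.35 at 1 h against control and -2.27 from 1 h to 12 h (adjusted p = 1 and 0.111). No p belongs to these coefficients, which were picked as the extremes of those 5707 features. Over all 8750 features, Lsm10 ranked 14 and Crisp2 ranked 15 from the top.

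The 3 members outside the score stood differently to it. Per1 had r = -0.324, Usp2 r = -0.0151 and Wee1 r = 0.0394 over the 24 arrays. Wee1 went with the outputs in lung (r = 0.625) and not in skin (r = -0.397), and Per1 had r = 0.135 in lung and -0.785 in skin. Within the score, of which all 5 genes are a part, Clock had the weakest coefficient in lung (r = -0.268, against -0.965 for Arntl), while in skin it was Nr1d2 (r = 0.549), with Clock at -0.844 and Arntl at -0.818.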

How the data were processed

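Per probe, the authors deposited the log10 ratio of Cy5 to Cy3, limited to ±2, from Agilent Feature Extraction per the submitters' processing notes. The version and the background and dye steps are not given in the sources used here. Lung was labelled with Cy3 and skin with Cy5 per the labels, so lung values were turned in sign, all were multiplied by 3.32 to log2 and centred on each array's median. Symbols came from GEO's platform annotation (6433 probes with 1 symbol, 381 with several, 2461 with none), and probes of a gene were averaged. limma 3.58.1 in R 4.3.3 was fitted per tissue (4 groups, strain as a block, 12 arrays, 6 residual degrees of freedom) and over 24 arrays with strain-by-tissue blocks (12 residual degrees of freedom). The replicate number stands for the strain, a factor of the design, and same-strain deviations correlated at -0.05 to 0.71. In simulated lung and skin data of 8750 features, 69 and 25 of 100 features changed 2-fold at 1 h were recovered, and 92 and 89 of 100 changed 4-fold. There were 11 and 9 wrong calls. The simulation gave every strain the same change, with independent noise and no arrays set apart, so recovery in the measured data may be lower. Labels do not say that pools of a group were processed separately beyond strain. With strain as a block, p-values of a change measure how unevenly it runs across the strains, with pool and array noise included. Named besides the members are the 4 measured clock genes with the smallest p per tissue and, among features with a single symbol that is no clone or prediction identifier, the 5 most and 5 least correlated with the output minus activator difference. Cry2, Csnk1d in lung and Csnk1e are named outside that rule, for their place in the loop, after their values were seen. The members and gene lists were chosen with earlier results of these data known. Alternatives changed the centring, normalization, blocks, filters and arrays. Promoters were searched in RefSeq windows; Wee1 was not searched.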

Additional observations from a re-analysis of the deposited data

Results flagged for a closer look

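Usp2 at 1 h lay on opposite sides of control in the tissues: all 3 lung values were below the control of the same strain and all 3 skin values above it. The skin change minus the lung change was 0.66 ± 0.35 (SE), and this difference was tested in the fit of all 24 arrays and did not pass (limma adjusted p = 1). In C57BL/6J the skin change was 0.01, so that the opposition rests mainly on A/J and C3H/HeMs.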

How the results depend on the processing

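No member was called under any of the settings tried, the smallest adjusted p being 0.0534 (Per3 in lung, 12 h against 1 h, without C57BL/6J). Without a call, directions did turn in lung when the 4 arrays were left out: for 4 of 8 members at 12 h, 4 at 72 h, 2 for 12 h against 1 h, 3 for 72 h against 12 h and 0 at 1 h. At 1 h in lung the count of 4 members with an unadjusted p under 0.05 ran from 2 (without C57BL/6J) to 5 as arrays were left out. The skin count of 3 was 1 under quantile normalization and 1 with no replicate block for strain, and ran from 1 to 3 as arrays were left out. The output minus activator difference at 1 h ran from -1.71 to -1.26 in lung and from -1.29 to -0.71 in skin as arrays were left out.

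Counts at later times moved more. With the lung array set as a block, the counts were 0 at 12 h, 0 at 72 h, 2 for 12 h against 1 h and 2 for 72 h against 12 h, and the difference at 72 h was -0.76. Without the 4 lung arrays they were 0, 1, 3 and 0, and the difference was 1.03 for 12 h against 1 h and turned to -0.41 at 12 h against control. With no replicate block the counts were 2 for lung 72 h against 12 h, 1 for skin 72 h and 0 for skin 72 h against 12 h. Lung 12 h gave 2 without centring and 0 with only the 2 groups compared. Lung 72 h against 12 h gave 0 under quantile normalization, 2 with ratios of 0 or at the limit as missing and 2 with only the 2 groups. Skin 12 h gave 1 under quantile normalization, and skin 72 h gave 1 without centring and 0 with only the 2 groups. The causes were not tested. The counts of this section stand without the share of all features under the same setting. They do not show whether a shift in a count is particular to the members.

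Leaving out arrays gave counts of 0 to 3 (lung 12 h), 1 to 4 (lung 72 h), 4 to 5 (lung 12 h against 1 h), 0 to 4 (lung 72 h against 12 h), 0 to 1 (skin 12 h), 0 to 2 (skin 72 h), 1 to 4 (skin 12 h against 1 h) and 0 to 1 (skin 72 h against 12 h). The difference ran from -0.38 to 0.50, -0.74 to -0.14, 1.12 to 1.88, -0.97 to -0.03, -0.15 to 0.55, -0.85 to -0.51, 0.71 to 1.61 and -1.21 to -0.54 in the same order.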
